A study of Schizothorax plagiostomus with 18 samples.

Results

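The comparison described here asks whether the change in transcript abundance from before to after spawning differed between the testis and the ovary of the snow trout Schizothorax plagiostomus, a seasonally breeding river fish. It used 12 of the 18 gonad libraries of the series: 3 pre-spawning testes, 3 post-spawning testes, 3 pre-spawning ovaries and 3 post-spawning ovaries. The other 6 libraries, from spawning testes and ovaries, entered the fit and are given as the stage in between. In the fit they helped set which features were tested, the scaling and the estimate of spread. All were total RNA depleted of ribosomal RNA, and the labels name no treatment, age or number of fish per library. Each library also carries a batch label, season 1 to 3, that equals its replicate number in every group. No label says that the 3 replicates of a group are different fish, so the spread behind each p-value is that of these samples and may be technical in part.

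In a seasonally breeding fish the testis makes sperm from dividing germ cells and releases them at spawning, after which mostly spent tubules and renewing germ cells remain. The ovary fills its oocytes with yolk and maternal RNA before spawning and afterwards holds emptied follicles and young oocytes. A transcript whose abundance moves with such a cycle in a single gonad, or in opposite directions in the gonads, gives a difference of differences: the log2 ratio of post-spawning to pre-spawning in testis minus that ratio in ovary. The features of the count table are clusters of transcripts or single transcripts from an assembly. The files do not pair them with gene names or sequences, so features are given by identifier and level, and the labelled tissues could not be checked against marker genes. In whole gonads, fewer cells of a type and less RNA per cell cannot be told apart.

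The 12 libraries held 14604277 to 52676056 counts, with post-spawning ovary 1 the smallest. Over the features tested, as a description, an ovary and a testis of the same pre- or post-spawning stage had Spearman correlations from 0.609 to 0.736. Between stages they ranged from 0.831 to 0.914 within ovaries and from 0.775 to 0.898 within testes. Within post-spawning ovaries, library 1 correlated with libraries 2 and 3 at 0.829 and 0.835, and those with each other at 0.96. Pre-spawning testis 1 lay nearer to the post-spawning testes, at 0.889 to 0.898, than pre-spawning testis 2 (0.812 to 0.851) or 3 (0.775 to 0.806).

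The stage change differed between the gonads for 146 of 53536 features tested, or 0.273% (edgeR quasi-likelihood test, Benjamini-Hochberg adjusted p under 0.05). In 73 of them (0.136% of those tested) the testis change lay above the ovary change, and in 73 (0.136%) below it. The smallest fitted difference was 1.84 on the log2 scale, 145 of 146 reached 2 and 71 reached 6. In 5 of the 146 a group had 0 counts in each library; with these at the bound that 3 counts per library gives, the smallest was 1.37, 144 reached 2 and 67 reached 6. The median was 5.18 in the first set and -7.52 in the other, with a median standard error of 1.05, against a median of -0.23 over all features tested. Choosing features by this difference in part fixes its size in them, so nothing is read from these sizes. Differences of 1 or more were common among all features (49.5%), with a median standard error of 1.02, and 8022 features (15.0%) had an unadjusted p under 0.05. With season as a block 41 features passed, 23 above and 18 below, and each of the 41 was among the 146. The count also changed when a single library was left out, for reasons that were not tested. It was 0 without post-spawning testis 3 (edgeR; 6055 at an unadjusted p under 0.05), 4 without post-spawning testis 1 and 5 without post-spawning testis 2. It was 45, 26 and 16 without pre-spawning ovaries 1, 2 and 3. Leaving out pre-spawning testis 2 or 3 gave 19 or 38 calls, and leaving out post-spawning ovary 2 or 3 gave 76 or 50. It was 443 without pre-spawning testis 1, 268 without post-spawning ovary 1 and 225 without spawning testis 1. The sign of the difference was kept by all 146 features in each of these fits. The choice of features for large differences in mostly the same libraries favours this, so it is no further support.

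**Figure D1:**
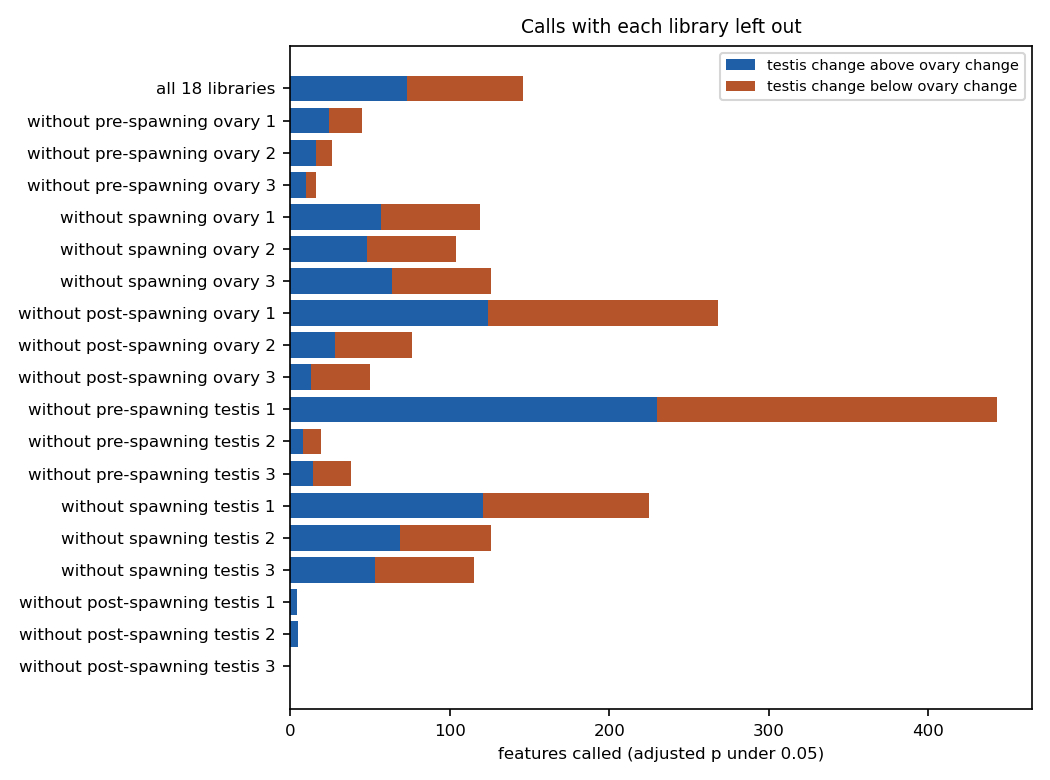
Number of features called for the testis-against-ovary difference in stage change (x axis) with all 18 libraries and with each library left out in turn (y axis), divided by direction. The count is 146 with all libraries, 443 without pre-spawning testis 1 and 0 without post-spawning testis 3.

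The estimates of the gonads mostly had opposite signs, in 132 of 146 features against 45.1% of all features tested, although the ovary change alone passed in 0 of the 146 (edgeR). In the set with the testis change above, 61 of 73 features had a positive estimate in testis and a negative estimate in ovary, and the other 12 had positive estimates in both. In the set below, 71 of 73 had a negative estimate in testis and a positive estimate in ovary, and the other 2 had negative estimates in both. Both changes were at least 1 on the log2 scale and opposite in 104 of the 146, against 7.29% of all features tested. In 37 the testis change reached 1 and the ovary change did not, and in 3 the reverse held. Choosing features by a large difference in part fixes such shares, so nothing is read from them.

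The testis carried the larger part of the difference in 115 of 146 features and the ovary in 31. It was the testis in 57.1% of all features tested. The split follows the estimates alone, and which gonad changed more was not tested for any feature. Tested on its own, the testis change passed in 115 of the 146, against 1166 of all features tested (2.18%). It rose in 57 of the set above, where 1.23% of all features rose, and fell in 58 of the set below, where 0.943% fell. The 1166 became 536 with the season block and 6617 by DESeq2. It was 3970, 2617 and 1931 without pre-spawning testis 1, post-spawning ovary 1 and spawning testis 1. Leaving out pre-spawning testis 2 or 3 gave 150 or 80, and leaving out post-spawning testis 1, 2 or 3 gave 72, 130 or 65. It was 775, 763 and 653 without pre-spawning ovaries 1, 2 and 3, and 731 without spawning ovary 1. The ovary change passed in 0 of the 146 (edgeR), against 1 of all features tested (0.00187%; 6978 at an unadjusted p under 0.05 and 1047 passing by DESeq2). The ovary count was 3 with the season block, 70 without post-spawning ovary 1 and 0 to 5 without any other single library. That feature did not pass the difference of differences (adjusted p = 0.149). The median log2 change was 3.2 in testis and -1.73 in ovary for the set above, and -4.46 and 2.25 for the set below, against -0.16 and 0.07 over all features tested. Pre- and post-spawning testes did not overlap in 67 and 71 features of the sets, where 48.2% of all features tested had no overlap. Pre- and post-spawning ovaries did not overlap in 48 and 33, where 13.2% of all features had none. Each gonad's change is a term of the difference by which the 146 features were chosen, from the same libraries. The choice in part fixes their shares and medians given here, so nothing is read from these. Across all features the testis change and the ovary change, which share no library, had a Spearman correlation of 0.149 and a Pearson correlation of 0.107, as a description over 53536 features that share depth and scaling.

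**Figure D2:**
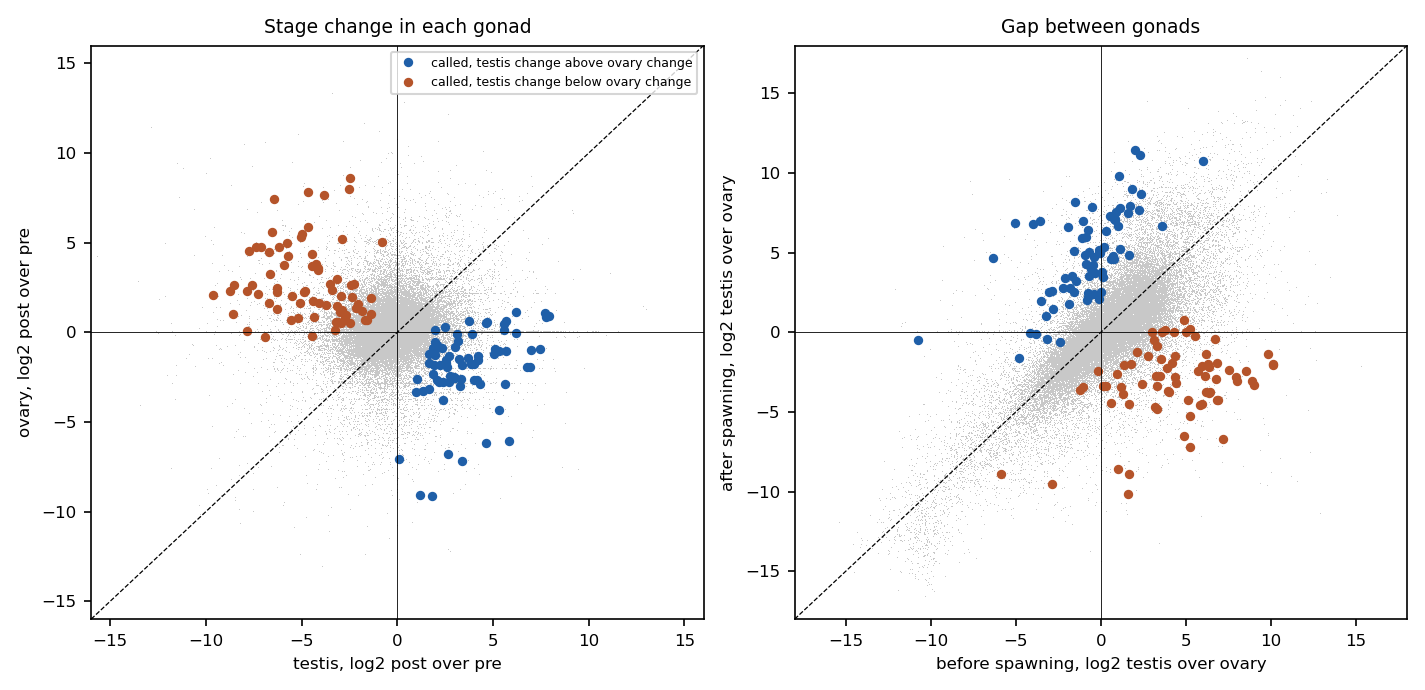
Left, log2 ratio of post- to pre-spawning in ovary (y axis) against that in testis (x axis); right, log2 ratio of testis to ovary after spawning (y axis) against that before (x axis). Grey pixels are all 53536 features tested, coloured points the 146 called, and the dashed line marks equal values. The called features lie mostly where the testis and ovary changes have opposite signs (132 of 146, against 45.1% of all features tested), which their choice in part fixes.

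The same differences can be given as a gap between the gonads. The gap after spawning minus the gap before is the difference by which the 146 features were chosen. Their choice thus in part fixes the counts and medians that follow, and nothing is read from them. The sign of the log2 ratio of testis to ovary changed from before to after spawning in 102 of 146 features, against 20.7% of all features tested. In 44 of them the gonad difference passed the test in opposite directions before and after spawning, against 121 of all features tested (0.226%). In the set above, the median ratio went from -0.6 to 4.84 on the log2 scale: 27 of 73 features were higher in testis before spawning and 67 after. In the set below, it went from 4.34 to -2.79: 68 of 73 were higher in testis before spawning and 6 after. Over all features tested the median absolute log2 ratio was 1.63 before and 1.55 after spawning, and 50.7% of features had the larger gap after spawning.

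**Figure D3:**
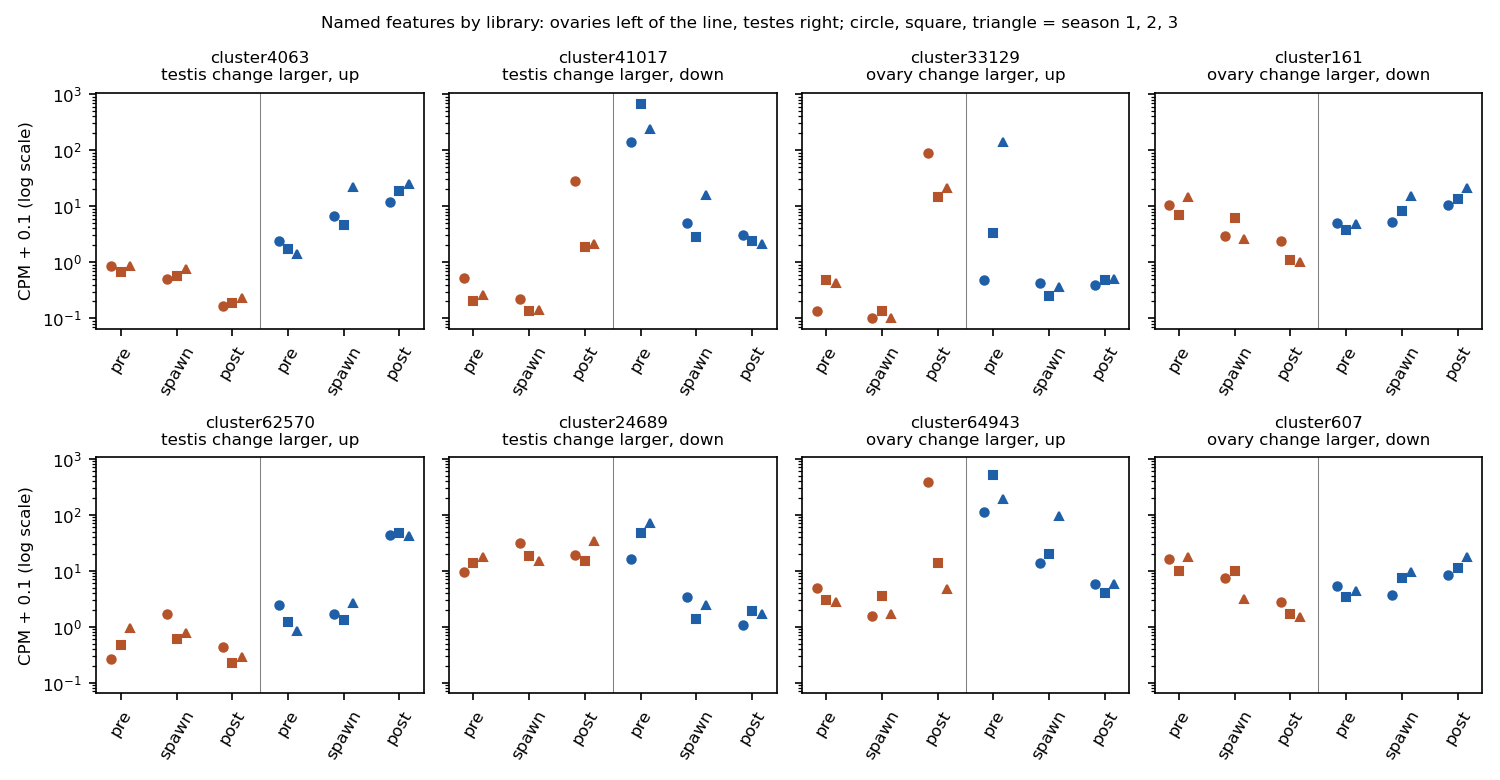
CPM plus 0.1 on a log scale (y axis) for the 8 features described individually, in each of 18 libraries by stage (x axis), ovaries left of the grey line and testes right. Symbols mark the season; cluster62570 rises to 41.7 to 47.3 CPM in post-spawning testes alone.

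Features with a rise in testis as the larger change numbered 55, and 45 of them also reached 10 CPM in a group mean (CPM are counts scaled to equal library totals). The feature cluster4063, made of 8 transcripts, stood at 2.33, 1.64 and 1.3 CPM in pre-spawning testes 1, 2 and 3 and at 12, 18.4 and 24.6 CPM in post-spawning testes. In ovaries it stood at 0.751, 0.576 and 0.758 CPM before spawning and at 0.0685, 0.0862 and 0.129 CPM after, from 1, 4 and 4 counts. Every post-spawning testis lay above every pre-spawning testis, and every post-spawning ovary below every pre-spawning ovary. Its testis rise was 4.02 (log2, SE 0.54, edgeR adjusted p = 0.00412), its ovary change -2.65 (SE 0.60, edgeR adjusted p = 0.174) and the difference 6.67 (SE 0.80, edgeR adjusted p = 0.0094). The single-transcript feature cluster62570 stood at 2.31, 1.09 and 0.729 CPM in pre-spawning testes and at 43.8, 47.3 and 41.7 CPM in post-spawning testes. In pre- and post-spawning ovaries it lay between 0.129 and 0.856 CPM, and these stages overlapped. Spawning testes, at 1.62, 1.23 and 2.55 CPM, overlapped pre-spawning testes. The testis rise of cluster62570 was 5.66 (log2, SE 0.64, edgeR adjusted p = 0.003), its ovary change -1.03 (SE 0.62, edgeR adjusted p = 0.495) and the difference 6.69 (SE 0.86, edgeR adjusted p = 0.0094). Without post-spawning testis 3 neither passed (adjusted p = 0.0576 each, at differences of 6.37 and 6.71). Over all alternatives the adjusted p of cluster4063 ranged from 2.93e-10 to 0.0576 and that of cluster62570 from 1.52e-11 to 0.0576. Both lowest values came from DESeq2, by which 1858 features passed.

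Features with a fall in testis as the larger change numbered 60, of which 52 reached 10 CPM. The single-transcript feature cluster41017 fell from 139, 677 and 238 CPM in pre-spawning testes 1, 2 and 3 to 2.96, 2.26 and 1.99 CPM in post-spawning testes. In ovaries it stood at 0.424, 0.102 and 0.165 CPM before spawning and at 28.2, 1.77 and 1.99 CPM after. Neither gonad's stages overlapped, and post-spawning ovary 1 stood far above the other post-spawning ovaries. Its testis change was -6.54 (log2, SE 1.10, edgeR adjusted p = 0.0115), its ovary change 5.57 (SE 1.10, edgeR adjusted p = 0.168) and the difference -12.12 (SE 1.55, edgeR adjusted p = 0.0094). The testis and ovary changes of cluster41017 differed in size by less than either SE. The feature cluster24689, made of 2 transcripts, fell from 16.2, 47.5 and 70 CPM to 0.979, 1.82 and 1.59 CPM in testes. In ovaries it stood at 9.3, 13.6 and 17.5 CPM before spawning and at 18.9, 15.1 and 33.6 CPM after, and these stages overlapped. Its testis change was -4.35 (log2, SE 0.54, edgeR adjusted p = 0.0039), its ovary change 0.84 (SE 0.47, edgeR adjusted p = 0.458) and the difference -5.19 (SE 0.70, edgeR adjusted p = 0.0094). Testes held more of cluster24689 than ovaries before spawning (log2 ratio 1.33, edgeR adjusted p = 0.0341) and less after (-3.86, edgeR adjusted p = 4.19e-05). Neither feature passed without post-spawning testis 1 (adjusted p = 0.0501 and 0.0619), 2 (0.0517 each) or 3 (0.0576 each). Over all alternatives the adjusted p ranged from 8.93e-41 to 0.0576 for cluster41017 and from 2.88e-09 to 0.0619 for cluster24689. The lowest value of cluster41017 came from the fit with no low-count filter, in which 2962 features passed. That of cluster24689 came from DESeq2.

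Features whose larger change was an increase in ovary numbered 13, of which 7 reached 10 CPM. The single-transcript feature cluster33129 stood at 0.0326, 0.373 and 0.329 CPM in pre-spawning ovaries 1, 2 and 3 and at 88.2, 14.2 and 20.6 CPM in post-spawning ovaries. In pre-spawning testes it stood at 0.389, 3.26 and 138 CPM, and in post-spawning testes at 0.298, 0.376 and 0.399 CPM. The level before spawning in testis thus came from a single library, pre-spawning testis 3, and the testis stages overlapped. Its ovary change was 7.45 (log2, SE 1.63, edgeR adjusted p = 0.174), its testis change -6.47 (SE 1.54, edgeR adjusted p = 0.0424) and the difference -13.92 (SE 2.24, edgeR adjusted p = 0.0218). The single-transcript feature cluster64943 stood at 4.8, 2.92 and 2.7 CPM in pre-spawning ovaries and at 385, 13.4 and 4.57 CPM in post-spawning ovaries, so that its mean after spawning rested on post-spawning ovary 1 and the ovary stages overlapped. In testes it went from 110, 509 and 187 CPM to 5.68, 3.98 and 5.62 CPM, without overlap. Its ovary change was 5.34 (log2, SE 1.28, edgeR adjusted p = 0.202), its testis change -5.06 (SE 1.26, edgeR adjusted p = 0.0471) and the difference -10.41 (SE 1.80, edgeR adjusted p = 0.0266). In both features the ovary and testis changes differed in size by less than either SE, so which was larger is uncertain. With season as a block neither feature passed (cluster33129 at an adjusted p of 0.0564, cluster64943 at 0.0694). Nor did they pass without post-spawning testis 1 (0.102 and 0.113), 2 (0.0941 and 0.121) or 3 (0.0979 and 0.126), or without pre-spawning ovary 1 (0.0602 and 0.0638), 2 (0.0698 and 0.0949) or 3 (0.085 and 0.105). Without pre-spawning testis 2 cluster64943 did not pass (0.0654). Without post-spawning ovary 1 the difference of cluster64943 was -6.71, and without pre-spawning testis 3 that of cluster33129 was -9.15; both passed (edgeR adjusted p = 0.0182 and 0.0236). Over all alternatives the adjusted p ranged from 6.59e-42 to 0.102 for cluster33129 and from 5.78e-34 to 0.126 for cluster64943. Both lowest values came from the fit with no low-count filter.

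Features whose larger change was a decrease in ovary numbered 18, of which 10 reached 10 CPM. The feature cluster161, made of 38 transcripts, stood at 10.5, 6.95 and 14.2 CPM in pre-spawning ovaries and at 2.33, 1.01 and 0.901 CPM in post-spawning ovaries. In testes it rose from 4.99, 3.72 and 4.7 CPM to 10.5, 13.6 and 21.1 CPM. Its ovary change was -2.79 (log2, SE 0.51, edgeR adjusted p = 0.158), its testis rise 2.39 (SE 0.50, edgeR adjusted p = 0.0266) and the difference 5.18 (SE 0.71, edgeR adjusted p = 0.0094). The feature cluster607, made of 22 transcripts, stood at 15.9, 9.93 and 17.5 CPM in pre-spawning ovaries and at 2.67, 1.59 and 1.42 CPM in post-spawning ovaries. In testes it rose from 5.15, 3.29 and 4.29 CPM to 8.15, 11.1 and 17.7 CPM. Its ovary change was -2.80 (log2, SE 0.50, edgeR adjusted p = 0.136), its testis rise 2.18 (SE 0.48, edgeR adjusted p = 0.0324) and the difference 4.97 (SE 0.69, edgeR adjusted p = 0.0094). The ovary and testis changes of cluster161 differed in size by less than either SE. Neither feature's stages overlapped in either gonad. Both were higher in ovary before spawning (log2 ratio of testis to ovary -1.67 and -2.20, edgeR adjusted p = 0.0131 and 0.00235) and higher in testis after (3.51 and 2.77, edgeR adjusted p = 0.000104 and 0.000451). Without post-spawning testis 3 neither passed (adjusted p = 0.0576 each). Over all alternatives the adjusted p ranged from 1.94e-10 to 0.0576 for cluster161 and from 7.76e-10 to 0.0576 for cluster607. Both lowest values came from DESeq2.

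Season by season, with each season's 4 libraries compared among themselves on log2(CPM + 0.1), the sign of the difference was the same in all 3 seasons for each of the 146 features. The choice of features favours this. For the set above the median was 3.26, 4.22 and 5.09 in seasons 1, 2 and 3, and for the set below it was -5.65, -6.51 and -5.76. Among the features described individually, cluster62570 differed by 3.44, 6.36 and 7.36 in these seasons, and cluster33129 by -9.68, -7.73 and -13.7.

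Spawning libraries, which the contrast uses only through the filter, the scaling and the estimate of spread, give the levels in between. The pre- and post-spawning levels beside them are those by which the features were chosen. That choice in part fixes the steps to and from spawning, so nothing is read from their sizes. The median level of the 73 features of the set above was 1.7 to 2.77 CPM in pre-spawning testes, 2.74 to 9.47 CPM in spawning testes and 14.1 to 21.1 CPM in post-spawning testes. In ovaries it was 2.01 to 2.68, 1.26 to 2.06 and 0.539 to 0.74 CPM. The median level of the set below was 21 to 59 CPM in pre-spawning testes, 3 to 5.32 CPM in spawning testes and 0.979 to 1.29 CPM in post-spawning testes. In ovaries it was 1.53 to 2.81 CPM before spawning and 1.47 to 2.47 CPM at spawning, and 5.11 to 11.9 CPM after. For the set below, spawning testes were all under the pre-spawning testes, and spawning ovaries overlapped pre-spawning ovaries.

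The whole-cycle difference is the sum of a difference on entry into spawning and another on exit from it, which share the spawning libraries. Entry passed for 8 of all features tested (0.0149%), 6 higher (0.0112%) and 2 lower (0.00374%). Exit passed for 5 (0.00934%), 1 higher (0.00187%) and 4 lower (0.00747%). With the season block entry passed for 0 (edgeR; 6799 at an unadjusted p under 0.05) and exit for 7. Entry passed for 203 without pre-spawning testis 1, 65 without spawning testis 1, 17 without post-spawning ovary 1 and 0 to 10 without any other single library. Exit passed for 85 without post-spawning ovary 1 and 3 to 11 without any other. Of the set above, 4 features passed on entry and 1 on exit, and of the set below 1 and 1. In the set above the median entry difference was 2.89 and the median exit difference 1.83 on the log2 scale, and the entry part was the larger in 41 of 73 features. In the set below they were -2.21 and -4.98, and the entry part was the larger in 23 of 73. The share of all features tested with the larger entry part was not counted, so the sets are not compared by the 41 and the 23. Entry and exit parts sum to the difference by which the features were chosen. The choice thus in part fixes these medians and the calls within the sets, and nothing is read from them. The estimates of cluster24689 and cluster62570 are given as 2 examples, and an order of change was not tested. The difference of cluster24689 was -4.41 on entry and -0.78 on exit, and that of cluster62570 was -0.01 on entry and 6.7 on exit.

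Many of the 146 features may not be independent of each other, which was not tested. Transcripts of the assembly share a stem in their identifiers. By such stems 46 of the called features were linked into 15 groups, directly or through other called features of the group. Within each of the 15 groups all called features differed in the same direction. The largest group held 11 features, made of 213 transcripts with 124 stems, among them cluster4063, cluster161 and cluster607. All 11 lay in the set above, with testis changes from 1.00 to 4.02 and ovary changes from -3.31 to -1.54 on the log2 scale. Their summed level was 64.8, 52.8 and 52.5 CPM in pre-spawning testes 1, 2 and 3 and 115, 183 and 250 CPM in post-spawning testes. In ovaries it was 76.5, 64.3 and 115 CPM before spawning and 22.5, 11.2 and 11.9 CPM after. In both gonads the stages did not overlap. The choice of called features in part fixes this and the changes and sums of each group, so nothing is read from them. A further 44 tested features shared a stem with these 11 and were not called. Of the 44, 20 had a difference of the same sign, and their median over all 44 was -0.20. Most uncalled features linked to other groups had the sign of their group (6 of 9, 5 of 6, 2 of 3, 2 of 2 and 1 of 1). Being left over after the called features were taken out, they say nothing about linked features in general. A group of 4 linked features in the set below had testis changes from -6.69 to -5.50 and ovary changes from 1.62 to 2.49. Their summed level was 417, 4924 and 1425 CPM in pre-spawning testes and 19.6 to 26 CPM in post-spawning testes. In ovaries 1, 2 and 3 the sum was 27.2, 9.22 and 22.5 CPM before spawning and 206, 22.5 and 22.3 CPM after. Only post-spawning ovary 1 thus lay above the range before spawning. How reads were divided between linked features is not given in the sources used here, so the level of any of them is uncertain in that respect.

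**Figure D4:**
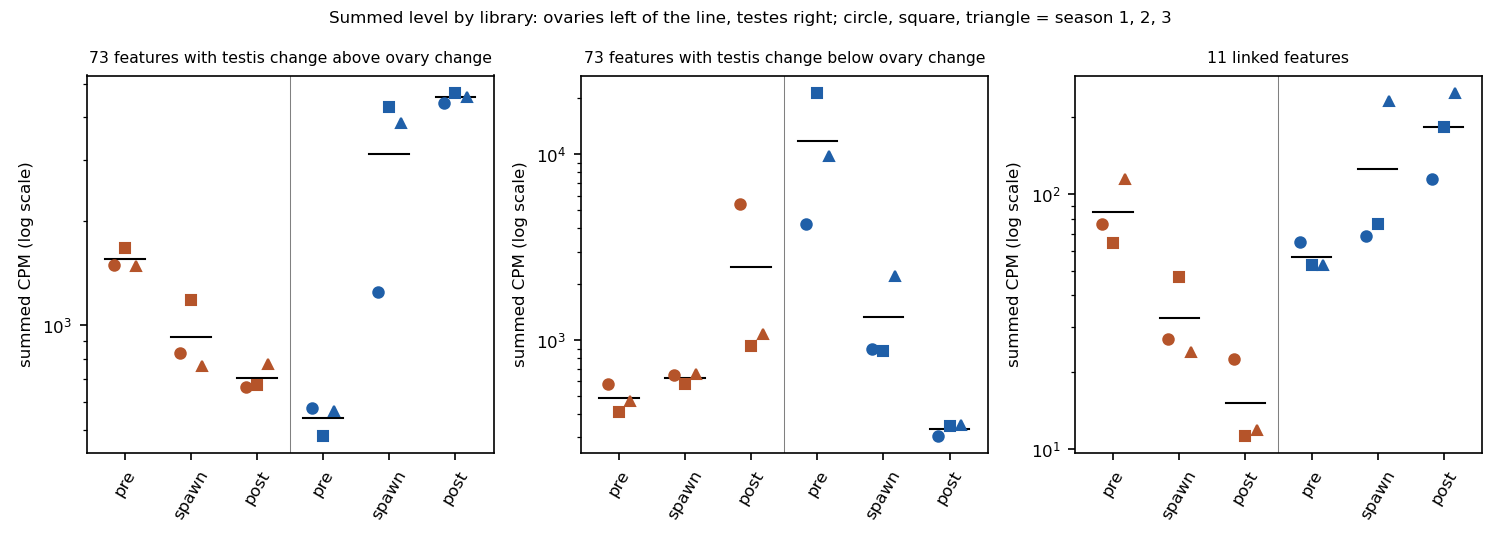
Summed CPM on a log scale (y axis) by stage (x axis) for the 73 features with the testis change above the ovary change, the 73 with it below, and the 11 linked features; bars are means of 3 libraries and symbols mark the season. The set below reaches 21487 CPM in pre-spawning testis 2 and 5438 CPM in post-spawning ovary 1.

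Summed levels of the set below were uneven among pre-spawning testes and among post-spawning ovaries, and those of the set above were more even within groups. The set above summed to 478 to 576 CPM in pre-spawning testes and 4388 to 4704 CPM in post-spawning testes, and to 1486 to 1670 and 664 to 774 CPM in pre- and post-spawning ovaries. By feature, pre-spawning testis 1 was the highest pre-spawning testis for 46 of these 73, and post-spawning ovary 1 lay at least 4-fold below both other post-spawning ovaries for 12. The matching shares of all features tested were not counted, so the 46 and the 12 are not read as particular to this set. The set below summed to 4241, 21487 and 9766 CPM in pre-spawning testes 1, 2 and 3 and to 304 to 351 CPM in post-spawning testes. In ovaries it summed to 409 to 583 CPM before spawning, and to 5438, 935 and 1074 CPM in post-spawning ovaries 1, 2 and 3. Pre-spawning testis 2 was the highest pre-spawning testis for 45 of the 73 features below, against 25.4% of all features tested, and pre-spawning testis 1 the lowest for 54, against 30.8%. Post-spawning ovary 1 stood at least 4-fold above both other post-spawning ovaries for 27 of the 73, against 16.7% of all features tested, and in 25 of these 27 pre-spawning testis 2 was also the highest pre-spawning testis. The features were chosen by levels in these same libraries. That choice in part fixes the shares of the set below, so nothing is read from them. Without post-spawning ovary 1, 25 of the 27 and 42 of the other 46 were still called. Without pre-spawning testis 2, 5 of the 27, 6 of the 46 and 8 of the 73 features above were.

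Gonad bias was taken from the spawning libraries alone. Testis-predominant features had at least 1 CPM in spawning testes and at least 16 times the level of spawning ovaries, ovary-predominant features the reverse, and shared features at least 1 CPM in either without that ratio. Of 2754 testis-predominant features tested 20 were called above and 17 below, or 1.34%. Of 2956 ovary-predominant features 1 was called above and 3 below (0.135%), and of 32939 shared features 46 and 45 (0.276%). The other 14887 features, low at spawning, held 6 and 8 (0.094%). The median difference was 0.00 for testis-predominant, -0.65 for ovary-predominant and -0.19 for shared features. Testis-predominant features had a median change of 0.30 in testis and 0.41 in ovary, and ovary-predominant features of -0.77 in testis and -0.13 in ovary. Whether these shares differed from the background was not tested.

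By the number of transcripts joined in a feature, 66 of 26491 single-transcript features were called (0.249%), 63 of 24151 with 2 to 9 transcripts (0.261%) and 17 of 2894 with 10 or more (0.587%). Of the 17 large features 13 were called above and 4 below, and 8 of the 13 belonged to the group of 11 linked features.

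At low levels the size of a difference is uncertain. In 22 of the 146 features at least 1 of the 4 groups had no library above 3 counts, the floor used here for a count of 0; it covers counting error alone. With the 5 that had a group at 0 set at their bound, the median difference was 5.14 for the set above and -7.13 for the set below. The post-spawning ovary was the low group in 13 features of the set above. In the set below 9 features had a low group, the post-spawning testis in 6 and the pre-spawning ovary in 4, which overlap.

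Values of whole libraries were compared by a two-sided exact permutation test of the difference of differences, with stage labels permuted within each gonad in 400 relabelings, where the smallest possible p is 0.005. Because labels were permuted in both gonads, a change confined to a single gonad can hardly come near that p. A value that did not pass is therefore not read as an equal change in the gonads. The share of counts in the top 100 features was 21.9% ± 2.77 before and 36.3% ± 1.29 after spawning in testes, and 19.1% ± 0.49 and 19.6% ± 3.19 in ovaries (SD, n = 3 each). Testes changed by 14.4 percentage points and ovaries by 0.496, a difference of 13.9 that did not pass (exact permutation p = 0.065, Benjamini-Hochberg adjusted p = 0.195 over 3 values). With each of these libraries left out in turn, the difference in this share ranged from 12.3 to 15.5. The exact permutation p, unadjusted and over fewer relabelings, ranged from 0.02 to 0.095. It was under 0.05 only without post-spawning ovary 2 (difference 15.5, exact permutation p = 0.02). At an equal depth of 14604277 counts, 67654 ± 4797 features were detected in pre-spawning and 65088 ± 1607 in post-spawning testes, and 55828 ± 269 and 54184 ± 992 in ovaries (SD, n = 3 each). The difference of -923 features did not pass (exact permutation p = 0.925, adjusted p = 0.925), and without pre-spawning testis 1 it was 1846. Features of several transcripts took 60.7% ± 3.32 and 62.6% ± 0.573 of counts in testes and 49.8% ± 1.22 and 49.8% ± 1.39 in ovaries, a difference of 1.93 percentage points (exact permutation p = 0.465, adjusted p = 0.698, n = 3 each).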

How the data were processed

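RNA of 9 ovary and 9 testis libraries was measured. Whole-number counts for 18 libraries were deposited by the authors, with a text map of transcripts to features. The tools fastp and Salmon are named per the submitters' processing notes. On versions, transcriptome, clustering and rounding nothing is given in the sources used here. Of 135031 features 53536 passed filterByExpr and were tested.

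Counts were fitted with edgeR 4.0.16 in R 4.3.3 (TMM, glmQLFit, glmQLFTest, 6 group means, Benjamini-Hochberg adjustment over all features tested, threshold 0.05). Standard errors came from the F statistic, and CPM from the deposited counts and library totals. The biological coefficient of variation was 63.3%. The fit was tested on simulated data. Libraries of the same group all differed beyond sampling noise (lowest chi-square per degree of freedom 23.6). Exact permutation tests enumerated all relabelings in Python 3.11.15. Alternatives were RLE scaling, no filter, a season block, a fit on 12 libraries, DESeq2 1.42.0, robust=TRUE and leaving out each library.

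The labels give season as a batch, and libraries of different groups share a season label. Deviations from group means correlated between -0.262 and 0.205 over 45 pairs of the same season, with 7 over 0.1, and 6 of 18 libraries correlated best with their own season.

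Features described individually had an adjusted p under 0.05, an absolute log2 difference of at least 1 and 10 CPM or more as the mean of the highest of 4 groups. The first 2 by unadjusted p were taken in each of 4 classes, by the gonad of the larger change and its direction. The comparison, classes and lists were chosen with earlier results of these data known. Lists of fish gonad genes prepared for features with gene symbols could not be applied.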

Additional observations from a re-analysis of the deposited data

Results flagged for a closer look

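The difference in stage change between testis and ovary itself passed the test for each feature described individually (edgeR, adjusted p under 0.05), and each is repeated here for that reason. Passing was a condition of their choice and is no further support. Without post-spawning testis 3 none of them passed (edgeR adjusted p from 0.0576 to 0.126). The log2 difference was 6.67 for cluster4063 and 6.69 for cluster62570, where the rise in testis was the larger part. It was -12.12 for cluster41017 and -5.19 for cluster24689, where the fall in testis was the larger part. In cluster41017 the fall was the larger by less than its SE, and post-spawning ovary 1 stood far above the other post-spawning ovaries. The log2 difference was -13.92 for cluster33129 and -10.41 for cluster64943, where 1 library of a group held most of the signal. In these features an increase in ovary was the larger part, but by less than its SE. The log2 difference was 5.18 for cluster161 and 4.97 for cluster607. They are linked to each other and to cluster4063 by shared identifier stems.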

How the results depend on the processing

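The number of features called for the whole-cycle difference was 146 (73 above, 73 below). It was 2962 (805, 2157) with no low-count filter, 41 (23, 18) with the replicate block on season, 227 (138, 89) with 12 libraries in the fit and 1858 (772, 1086) by DESeq2. RLE scaling gave 153 and robust=TRUE 142. With 1 library left out it ranged from 0 to 443, with 0 to 230 above and 0 to 213 below. The testis change passed for 4891 features with no filter, 536 with the block, 1978 with 12 libraries and 6617 by DESeq2, and for 65 to 3970 with a library left out. The ovary change passed for 2493, 3 (block) and 1047 (DESeq2), and for 0 to 70 with a library left out. The entry difference passed for 2242, 0 (block; edgeR, 6799 at an unadjusted p under 0.05) and 1373, and for 0 to 203; the exit difference for 2583, 12 (RLE), 14 (robust=TRUE) and 1348, and for 3 to 85. The block changed the call of no individually described feature other than cluster33129 and cluster64943. DESeq2 gave no adjusted p for cluster33129. With a ratio of 4 at spawning, 34 testis-predominant features were called above and 34 below, 4 and 8 ovary-predominant, and 29 and 23 shared. With a library left out, the difference in the share of the 100 most abundant features ranged from 12.3 to 15.5 percentage points and that in detected features from -2378 to 1846, the latter without pre-spawning testis 1. The causes of these changes were not tested. Depth limits features near 3 counts per library.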
